A study of Mus musculus with 48 samples.

Results

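Most of the 10 genes described here act in polyamine metabolism, namely Amd1, Amd2, Odc1, Azin1, Srm, Sms, Smox, Paox and Sat1, and the last is Cdk19, which lies beside Amd1 on chromosome 10. They were taken by symbol from a list written with results of these libraries by dose, sex and genotype already known. They are 10 of the 54532 genes of the deposited count table, each with 1 row, and 10 of 10 were among the 15583 genes that passed the filter on low counts. RNA was sequenced from gastrocnemius, a calf muscle of mostly fast fibres, of 48 mice after 21 days of perfluorooctane sulfonate (PFOS), a persistent fluorinated surfactant given by gavage at 0, 1 or 10 mg/kg/day, which are called dose 0, dose 1 and dose 10 hereafter. Mice were males or females of 2 genotypes, hCYP2B6-Tg (carrying human CYP2B6) and Cyp2b-null (lacking mouse Cyp2b genes), and dose 0 had 17 mice, dose 1 had 16 and dose 10 had 15. The 12 combinations of sex, genotype and dose held 4 mice, except 5 hCYP2B6-Tg males at dose 0 and 3 Cyp2b-null males at dose 10. The strain, the age, the vehicle, the promoter of the transgene and whether hCYP2B6-Tg mice also lack the mouse Cyp2b genes were not given in the sources used here. As its title says, the study concerned mitochondrial metabolism in skeletal muscle.

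Polyamines are small cationic metabolites that bind nucleic acids and ribosomes. Ornithine decarboxylase (Odc1) makes putrescine, S-adenosylmethionine decarboxylase (Amd1, Amd2) makes the aminopropyl donor, and spermidine synthase (Srm) and spermine synthase (Sms) add that group in turn. Spermine oxidase (Smox), the acetyltransferase Sat1 and the acetylpolyamine oxidase Paox run the pathway backwards, and the antizyme inhibitor Azin1 shields ornithine decarboxylase from degradation. In mouse skeletal muscle Amd1, Odc1 and Smox are known as genes that respond to androgens. Cdk19, a kinase of the Mediator complex, is not one of the enzymes of the pathway.

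Amd1 and Amd2 are so alike that their reads may not be separable, and 2 stretches of their sequence are shown to make that plain. Amd1 (ENSMUSG00000075232) spans chr10:40287458-40302186 and Amd2 (ENSMUSG00000063953) chr10:35708675-35711892, both on the minus strand of GRCm38 and 4.58 Mb apart. The reference transcript of Amd1 has 8 exons and that of Amd2 has 1. Over 3208 aligned columns the transcripts were 99.44% identical, with 11 mismatches and 7 gap columns. Their coding sequences, 1005 bases each, differed at a single base, G796C counted from the first coding base with the base of Amd1 first, and the changed codon encodes another residue. The coding bases 766 to 826 around that difference, which is in capitals, were as follows.
Amd1: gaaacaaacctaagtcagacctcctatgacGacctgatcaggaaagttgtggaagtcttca
Amd2: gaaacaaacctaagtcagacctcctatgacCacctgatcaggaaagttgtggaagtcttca
Of all 100-base windows of the Amd2 transcript 72.88% also occur, letter for letter, in the Amd1 transcript, and of all 50-base windows 85.67%. A read of that length from such a window fits both genes equally, and how the authors' counting treated such reads is not given in the sources used here.

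Upstream of the transcripts the likeness ended, as the 250 bases before each start show (RefSeq, GRCm38.p6, minus strand, chr10:40302189-40302438 for Amd1 and chr10:35711892-35712141 for Amd2).
Amd1 upstream: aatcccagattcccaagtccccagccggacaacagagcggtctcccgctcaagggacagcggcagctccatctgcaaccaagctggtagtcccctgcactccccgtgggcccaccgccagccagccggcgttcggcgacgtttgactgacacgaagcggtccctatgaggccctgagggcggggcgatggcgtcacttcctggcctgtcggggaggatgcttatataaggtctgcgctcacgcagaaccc
Amd2 upstream: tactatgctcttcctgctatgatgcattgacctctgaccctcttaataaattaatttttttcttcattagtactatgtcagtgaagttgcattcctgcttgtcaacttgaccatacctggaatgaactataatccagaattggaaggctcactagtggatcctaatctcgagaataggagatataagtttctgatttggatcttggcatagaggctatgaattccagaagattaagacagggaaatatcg
The longest run of letters shared by these windows was 7 bases. GC content was 64.4% in the window of Amd1 and 37.6% in that of Amd2. Promoter windows were matched for 7 of the 10 genes, in 9 entries, and not for Srm, Azin1 and Cdk19. The E-box CACGTG, which reads the same on both strands, occurred once in these 250-base windows, in Sms at position -196, and in 6.02% of all 32851 windows of the table. The hormone response half-site AGAACA, searched on both strands, occurred once, in Sat1 at position -191, and in 16.1% of all windows.

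Total counts per library were 11571142 to 19921061. Fast and slow muscle fibre genes, 7 in number, summed to 114473 to 157894 CPM (read counts relative to the scaled library total, as edgeR gives them) at 0 and 63944 to 129280.0 at dose 10, where 1 of the 7 rose and 3 fell. Liver genes had median sums under 1 CPM at each dose, and the highest library was Cyp2b-null male replicate 2 at dose 1 (3139.6 CPM, with 27859 Alb counts). That library and 5 with 41 to 790 counts of the lymph node gene Glycam1 stand apart, and results were also computed without these 6. Of the 5, hCYP2B6-Tg female replicate 4 was at dose 0. The others were at dose 10, namely hCYP2B6-Tg female replicate 1 and male replicate 3, and Cyp2b-null female replicate 3 and male replicate 3. Fits without the 6 thus leave out mostly mice at dose 10. Adipocyte markers, 8 in number, summed to 342 to 852 CPM (median 568) at 0, 317 to 2111 (median 562) at 1 and 611 to 2805 (median 1184) at dose 10, and 7 of the 8 rose at dose 10. Of those 8, Lep was the one that did not pass and the one at 0 counts in any library, in 6 of them. Between the sexes at dose 0, 0 of the 8 passed in edgeR's test, with 0 at an unadjusted p under 0.05 and 0 by DESeq2 or limma voom. Of 4 satellite cell markers 3 fell at dose 10, and of 6 lymph node and lymphocyte markers 5 rose. The lymph node and lymphocyte sums had medians of 1.58 CPM at dose 0 and 2.15 at dose 10. Their highest values were 60.9 and 102.7 CPM. The part of these other cell types in the results below was not tested, beyond fits with the adipocyte markers as a covariate. Within every sex and genotype the numbers in the library names rose with dose without overlap. The labels do not say what these numbers record, and their part in the results was not tested. In bulk muscle fewer cells of a type and less RNA per cell cannot be told apart.

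**Figure D1:**
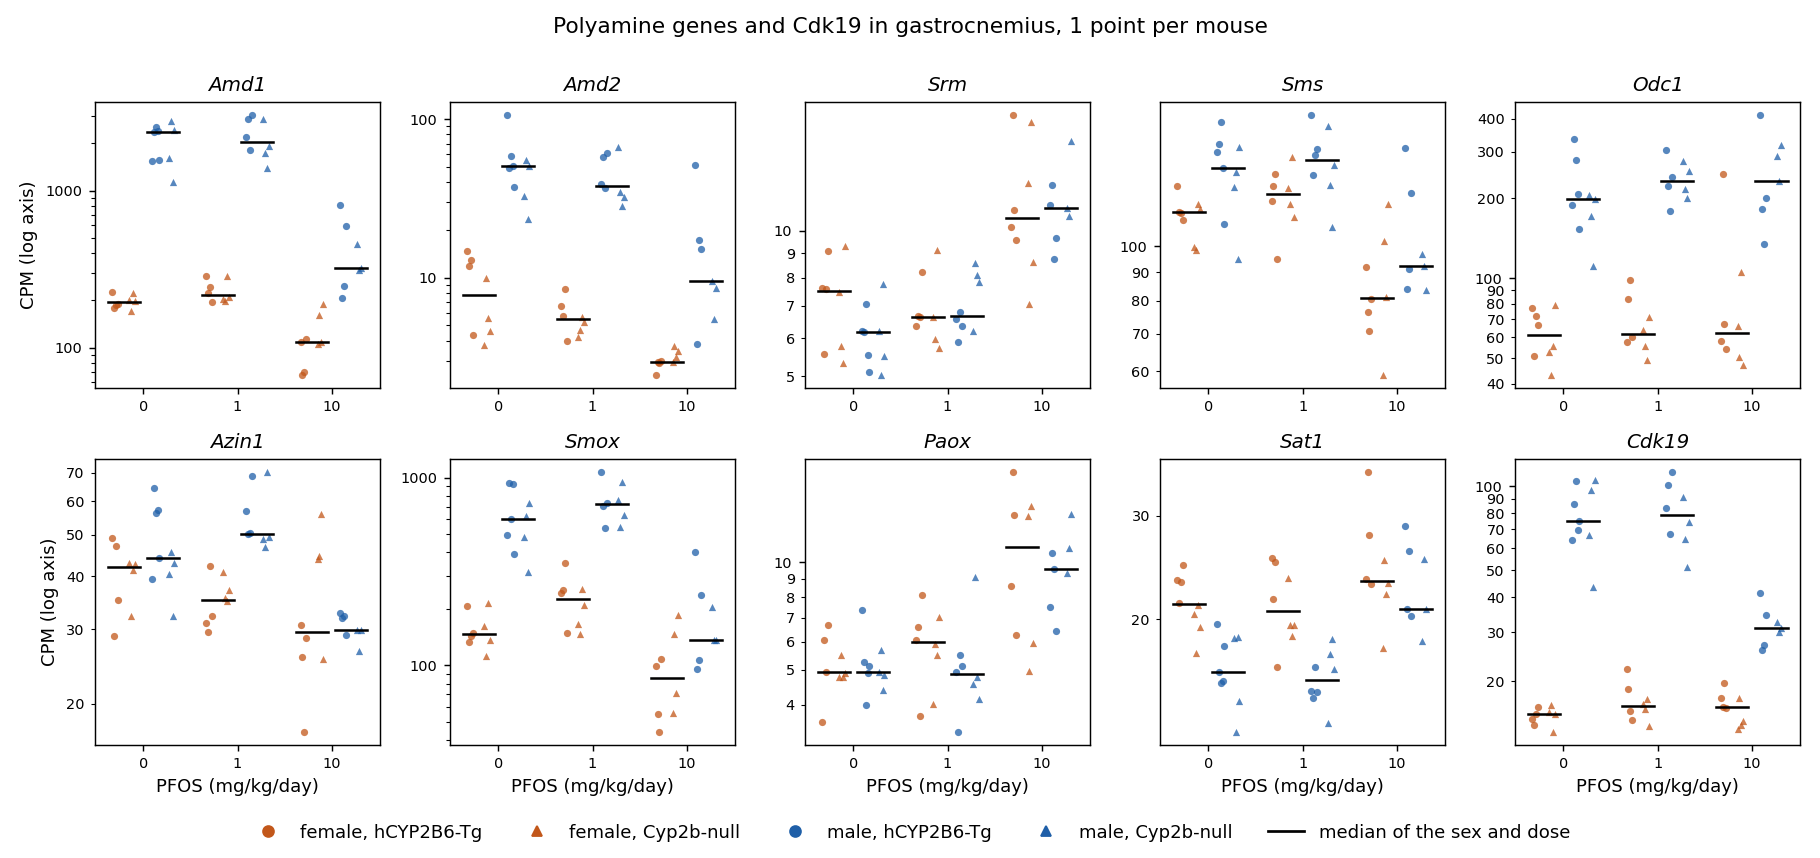
CPM of each gene on log axes, by dose of PFOS (mg/kg/day), with 1 point per mouse and a bar at the median of each sex and dose. Amd1, Amd2, Odc1, Smox and Cdk19 of males lay above those of females at dose 0, and Amd1 and Cdk19 of males at dose 10 lay below all males at dose 0.

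Amd1 was the most abundant of the 10 per length of gene, and it was lowest at dose 10 in both sexes. Per kilobase of gene length in the table it stood at 575 CPM in males and 55.6 in females at dose 0. In males it averaged 2036 ± 578 CPM (SD, n = 9) at 0 and 420.3 ± 215 (n = 7) at dose 10, which the model put at 4.95-fold lower. In females the averages were 197 ± 19.1 CPM (n = 8) and 115.7 ± 41.7 (n = 8), 1.75-fold lower in the model. Males were 10.3-fold above females at dose 0.

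The single mice show how far the groups lay apart. At dose 0 Amd1 stood at 1534, 2358, 2544, 2398 and 1568 CPM in the hCYP2B6-Tg males and at 1605, 2776, 1126 and 2416 in the Cyp2b-null males. At dose 1 the males had 2186, 2846, 1809 and 3025 CPM (hCYP2B6-Tg) and 2851, 1729, 1396 and 1919.9 (Cyp2b-null). At dose 10 they had 592, 246, 207 and 806 CPM (hCYP2B6-Tg) and 456, 312 and 323 (Cyp2b-null). Males at doses 0 and 1 overlapped, and 7 of 7 males at dose 10 lay below every male at 0, as did 3.92% of all tested genes.

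Females had lower values and a smaller step. At dose 0 the hCYP2B6-Tg females had 226, 180.0, 187 and 189.8 CPM and the Cyp2b-null females 201.3, 172, 222 and 197.96. At dose 1 the values were 286, 222, 242 and 194.8 CPM (hCYP2B6-Tg) and 203.2, 198.6, 284 and 210.1 (Cyp2b-null). At dose 10 they were 108.3, 67.4, 70.2 and 114.1 CPM (hCYP2B6-Tg) and 105.3, 161.1, 109.3 and 190.0 (Cyp2b-null). Of the 8 females at dose 10 7 lay below every female at 0. Amd1 in 6 of 7 males at dose 10 was still above every female at 0, and in 7 of 7 it was above every female at dose 10.

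The log2 fold change of Amd1 from dose 0 to dose 10, averaged over the 4 strata of sex and genotype, was -1.56 ± 0.15 (± SE). By stratum it was -2.17 ± 0.29 in hCYP2B6-Tg males, -2.44 ± 0.34 in Cyp2b-null males, -0.49 ± 0.29 in Cyp2b-null females and -1.12 ± 0.30 in hCYP2B6-Tg females. Against dose 1, with the same mice at the higher dose, it was -1.73 ± 0.15. Averaged over strata 10 of the 10 genes passed an adjusted p of 0.05, 4 higher and 6 lower, where 47.5% of all tested genes passed, 25% higher and 22.5% lower. The genes were chosen with this comparison known, so the count is a description and nothing is read from it. With the same reading, 9 passed from dose 1 to dose 10 beside 46.9% of all genes, and from dose 0 to dose 10, 9 in males (30.3%) and 6 in females (33.6%). By stratum 7 passed in hCYP2B6-Tg females (27.7%), 7 in hCYP2B6-Tg males (18.5%), 6 in Cyp2b-null males (15.8%) and 2, Srm and Paox, in Cyp2b-null females (12.7%).

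Amd2 was read at a small share of the level of Amd1 and was lower at dose 10 in both sexes. Per kilobase it stood at 16.03 CPM in males and 2.63 in females at dose 0. Its lowest, median and highest values in males were 23.6, 50.4 and 106 CPM at 0, 28.3, 38.0 and 67.0 at 1 and 3.83, 9.57 and 51.1 at dose 10. In females they were 3.74, 7.80 and 14.7 CPM at 0, 3.98, 5.47 and 8.54 at 1 and 2.45, 2.96 and 3.73 at dose 10. All 8 females at dose 10 lay below all 8 at 0, as for 2.75% of all genes, and 6 of 7 males at 10 lay below all 9 males at 0. On the log2 scale Amd2 changed by -1.66 ± 0.22 over strata, -1.92 ± 0.31 in males and -1.40 ± 0.33 in females.

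The share of Amd2 in the counts of both genes varied between mice. Grouped by cuts at 3% and 5%, the share was 5.5 to 6.59% in 7 mice, 3.41 to 4.2% in 3 and 1.66 to 2.82% in the remaining 38. Whether these are separate classes was not tested. The 7 mice were hCYP2B6-Tg female replicates 1, 2 and 3 and Cyp2b-null female replicate 2 at 0, hCYP2B6-Tg male replicate 1 at 0, and hCYP2B6-Tg male replicates 2 and 4 at dose 10. Summing both genes gave a log2 fold change of -1.56 ± 0.15 from dose 0 to dose 10. Processed pseudogenes of Amd1 held few counts, 7360 for Amd-ps3, 2886 for Amd-ps4, 275 for Amd-ps1, 6 for Amd-ps5 and 0 for Amd-ps6, against 588568 for Amd1 and 14590 for Amd2. Adding them to the sum gave -1.56 ± 0.15.

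**Figure D2:**
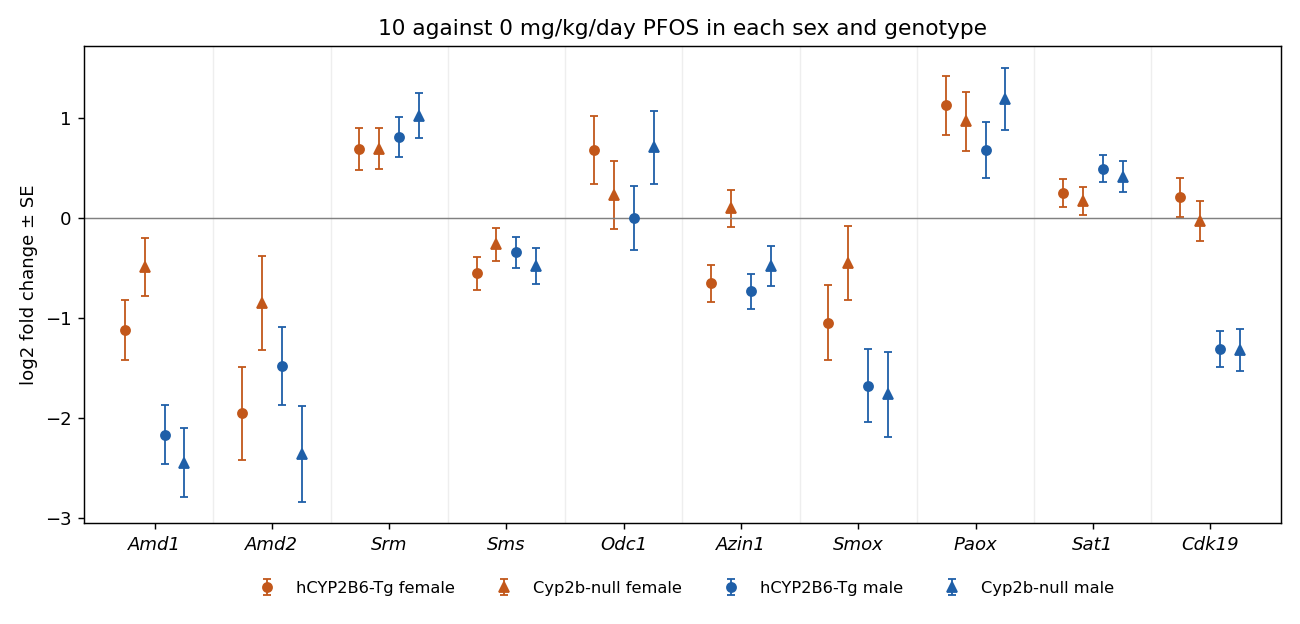
Log2 fold change ± SE from dose 0 to dose 10 of PFOS for each gene in the 4 strata of sex and genotype. Amd1, Smox and Cdk19 were lower in both male strata than in both female strata, and Srm and Paox were above 0 in each of the 4.

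The synthases that use the aminopropyl group differed in direction: Srm rose and Sms fell at dose 10. Srm (ENSMUSG00000006442, chr4:148591503-148594993, plus strand) had lowest, median and highest values of 5.04, 6.19 and 7.77 CPM in males at 0 and 8.75, 11.1 and 15.4 at dose 10. In females these were 5.33, 7.53 and 9.29 CPM at 0 and 7.07, 10.6 and 17.4 at dose 10. All 7 males at dose 10 lay above all 9 at 0, as did 2.82% of all tested genes, and 6 of 8 females lay above all 8 at 0. The log2 fold change of Srm was 0.80 ± 0.11, with 0.69 ± 0.15 in females and 0.92 ± 0.15 in males. Its counts were small, 63 to 350 in the males at doses 0 and 10.

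Sms (ENSMUSG00000071708, chrX:157443855-157492287, minus strand), the enzyme that converts spermidine to spermine, had 95.1, 137.8 and 166 CPM in males at 0 and 83.8, 92.2 and 149.7 at dose 10 (lowest, median and highest). In females it had 98.5, 115 and 127.9 CPM at 0 and 59.2, 80.9 and 119.1 at dose 10. The doses overlapped in both sexes, with 4 of 7 males and 6 of 8 females at dose 10 below all of their sex at 0. The change of Sms in log2 was -0.41 ± 0.08 over strata and nearly the same in males (-0.41 ± 0.12) and females (-0.41 ± 0.12).

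Averaged over strata, Odc1 and Azin1, which set the entry of ornithine, differed in direction as well, though not in every stratum. Odc1 (ENSMUSG00000011179, chr12:17544794-17551505, plus strand) had 110.8, 198.2 and 335 CPM in males at 0, 179.3, 232 and 306 at 1 and 135, 234 and 412 at dose 10 (lowest, median and highest). In females it had 43.3, 60.9 and 79.3 CPM at 0, 49.1, 61.9 and 98.3 at 1 and 47.3, 62.1 and 248 at dose 10. The doses overlapped almost completely within each sex, while males were 3.22-fold above females at dose 0 without overlap. The highest female, hCYP2B6-Tg replicate 2 at dose 10 with 248 CPM, stood far above the other 3 of its group, of which the highest had 67.2 CPM. The log2 fold change of Odc1 over strata was 0.40 ± 0.17, and 0.19 ± 0.14 without that mouse, which no longer passed. Odc1 lost the call in 31 of the 48 fits that left out 1 mouse.

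Azin1 (ENSMUSG00000037458, chr15:38487427-38519266, minus strand) had 32.2, 44.1 and 64.5 CPM in males at 0, 46.9, 50.3 and 70.3 at 1 and 26.7, 29.9 and 32.7 at dose 10. In females it had 28.9, 42.02 and 49.1 CPM at 0, 29.5, 35.2 and 42.1 at 1 and 17.2, 29.6 and 55.9 at dose 10. Males at dose 10 spanned a narrow range, and 5 of 7 lay below all males at 0. Over strata the log2 fold change was -0.44 ± 0.09, with -0.61 ± 0.13 in males and -0.28 ± 0.13 in females, where it did not pass. By stratum it was -0.73 ± 0.18 in hCYP2B6-Tg males, -0.65 ± 0.18 in hCYP2B6-Tg females, -0.48 ± 0.20 in Cyp2b-null males and 0.10 ± 0.18 in Cyp2b-null females. With library totals left unscaled it was -0.21 ± 0.10 and did not pass.

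Smox, which oxidises spermine back to spermidine, fell at dose 10, and Paox and Sat1, which act on acetylated polyamines and make them, rose. Smox (ENSMUSG00000027333, chr2:131491496-131525922, plus strand) was second to Amd1 per kilobase, at 157 CPM in males and 40.4 in females at dose 0. Its lowest, median and highest values in males were 315, 603 and 935 CPM at 0, 540.3, 722 and 1069.5 at 1 and 95.9, 135.8 and 399.6 at dose 10. In females they were 111.5, 146 and 215 CPM at 0, 146, 227 and 352 at 1 and 44.4, 85.3 and 185 at dose 10. Below all mice of their sex at 0 lay 6 of 7 males and 6 of 8 females at dose 10. On the log2 scale it changed by -1.23 ± 0.19 over strata, -1.72 ± 0.28 in males and -0.75 ± 0.26 in females.

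Paox (ENSMUSG00000025464, chr7:140115799-140137224, plus strand) had 3.98, 4.95 and 7.34 CPM in males at 0 and 6.42, 9.60 and 13.6 at dose 10. In females it had 3.58, 4.93 and 6.67 CPM at 0 and 4.95, 11.1 and 17.9 at dose 10. Above all mice of their sex at 0 lay 6 of 7 males and 5 of 8 females. The change in log2 was 0.99 ± 0.15 over strata, 0.93 ± 0.21 in males and 1.05 ± 0.21 in females. The start of Paox overlaps Echs1 on the other strand, a mitochondrial enzyme gene with 84690 counts in all against 5091 for Paox. The use of strand in counting is not given in the sources used here, so reads of both genes in the overlap cannot be told apart.

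Sat1 (ENSMUSG00000025283, chrX:155213132-155216449, minus strand) was the only one of the 10 lower in males than in females at a passing difference at dose 0. It had 12.9, 16.3 and 19.6 CPM in males at 0 and 18.3, 20.8 and 28.8 at dose 10. In females it had 17.5, 21.2 and 24.7 CPM at 0 and 17.9, 23.2 and 35.6 at dose 10. Above all mice of their sex at 0 lay 6 of 7 males and 3 of 8 females. In log2 it changed by 0.33 ± 0.07 over strata, 0.45 ± 0.10 in males and 0.21 ± 0.10 in females.

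Adipocyte markers rose at the same dose, so the 10 genes were also fitted with the mean of those markers as a covariate. From dose 0 to dose 10 the log2 fold changes were then -1.34 ± 0.17 for Amd1, -0.91 ± 0.21 for Smox, -0.26 ± 0.09 for Sms, 0.69 ± 0.13 for Srm and 0.82 ± 0.18 for Paox. All 10 genes kept their direction and passed in that fit. Without the 6 libraries that stand apart, chosen after seeing the data, 9 of 10 passed, and Odc1 did not (0.40 ± 0.18).

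Cdk19 (ENSMUSG00000038481) fell at dose 10 in males, while in females its difference did not pass. It spans chr10:40339564-40483818 on the plus strand. Its start lies 37.4 kb from that of Amd1, which runs the opposite way, and 1 other gene of the table lies wholly between them. In males at dose 0 Cdk19 stood at 64.1, 86.6, 104.6, 69.5 and 75.2 CPM (hCYP2B6-Tg) and 66.6, 97.0, 43.7 and 104.8 (Cyp2b-null). At dose 1 the males had 83.3, 101.02, 67.5 and 112 CPM and 91.7, 64.8, 51.5 and 74.2, in the same order of genotypes. At dose 10 they had 34.7, 27.1, 25.9 and 41.5 CPM and 32.7, 30.2 and 30.9. Each of the 7 males at dose 10 lay below all 9 males at 0, and above all females at 0 and at dose 10.

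Females spanned a narrow range over the 3 doses. At dose 0 Cdk19 had 14.7, 13.99, 15.4 and 16.3 CPM (hCYP2B6-Tg) and 15.6, 16.4, 13.2 and 15.3 (Cyp2b-null). At dose 1 the values were 22.2, 18.8, 15.7 and 14.5 CPM and 16.6, 15.99, 17.4 and 13.9. At dose 10 they were 17.5, 16.3, 19.8 and 16.1 CPM and 13.5, 17.4, 13.9 and 14.5. All 6 female groups overlapped their neighbours in the order of levels, and 3 of 8 females at dose 10 lay above all 8 at 0. The log2 fold change from dose 0 to dose 10 was -1.31 ± 0.18 in hCYP2B6-Tg males, -1.32 ± 0.21 in Cyp2b-null males, -0.03 ± 0.20 in Cyp2b-null females and 0.21 ± 0.20 in hCYP2B6-Tg females. Averaged over males and females apart, it was -1.31 ± 0.14 and 0.09 ± 0.14.

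Ordered by their means, the 12 groups of Amd1 and of Cdk19 began with the 4 groups of males at doses 0 and 1, which overlapped their neighbours in the order. Males at dose 10 came next, and no mouse of theirs reached the range of the males above. For Cdk19 the lowest male at dose 10, with 25.9 CPM, lay above the highest female of any dose, with 22.2. For Amd1 the lowest of the hCYP2B6-Tg males at dose 10, with 207 CPM, lay within the range of the females at doses 0 and 1. For Odc1 each group overlapped the next throughout the order, from 280.2 CPM on average in Cyp2b-null males at dose 10 to 57.7 in Cyp2b-null females at 0. The overlap of males and females in that order came from 1 mouse, the hCYP2B6-Tg female with 248 CPM, and the next highest female of any dose (106 CPM) lay below the lowest male (110.8). Smox also ran in overlapping steps, from 763 CPM in hCYP2B6-Tg males at dose 1 to 76.5 in hCYP2B6-Tg females at 10.

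Other genes around Amd1 were read to see whether the sex difference reached along the chromosome. Within 1 Mb of Amd1 the table holds 51 other genes, of which 18 were tested. Between the sexes at dose 0, 3 were higher in males, Rev3l, the catalytic subunit of a DNA polymerase (0.48 ± 0.11, adjusted p = 0.00345), Slc16a10, an aromatic amino acid transporter (0.45 ± 0.09, adjusted p = 0.000758), and Traf3ip2, a signalling adaptor (0.38 ± 0.12, adjusted p = 0.049). In edgeR's quasi-likelihood test 0 of the 18 were lower, with 0 at an unadjusted p under 0.05 and 0 by DESeq2 or limma voom. Of all tested genes 4.73% were higher and 2.86% lower in males. Amd1 (3.36 ± 0.22) and Cdk19 (2.38 ± 0.14) had larger differences than every tested neighbour, of which the largest was 0.48.

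From dose 0 to dose 10, 3 of the 18 neighbours rose and 5 fell, beside 25% and 22.5% of all tested genes, a share near the background. Traf3ip2 (0.45 ± 0.09, adjusted p = 5.65e-05), Rev3l (0.36 ± 0.08, adjusted p = 0.00025) and the splicing factor gene Cdc40 (0.17 ± 0.07, adjusted p = 0.0303) rose. Mfsd4b3 (-0.68 ± 0.14, adjusted p = 7.86e-05), Mfsd4b1 (-0.55 ± 0.14, adjusted p = 0.000931), Slc16a10 (-0.33 ± 0.06, adjusted p = 6.39e-05), Ddo (-0.33 ± 0.05, adjusted p = 2.01e-06) and Gtf3c6 (-0.32 ± 0.07, adjusted p = 0.000242) fell. Mfsd4b3 and Mfsd4b1 belong to a family of sugar transporters, Ddo oxidises D-aspartate and Gtf3c6 is a subunit of a general transcription factor. Fyn, Mfsd4b4, Mfsd4b5, Rpf2, Mettl24 and Fig4 did not pass, with log2 values from -0.14 to 0.26. The effect of dose 10 passed as different between the sexes for 0 of the 18 in edgeR's test, with a lowest adjusted p of 0.126, 3 at an unadjusted p under 0.05 and 0 by DESeq2 or limma voom. With adipocyte markers as a covariate Cdc40 (adjusted p = 0.527) and Gtf3c6 (0.057) did not pass. With library totals left unscaled Ddo (adjusted p = 0.0717), Slc16a10 (0.096) and Gtf3c6 (0.177) did not pass, and without the 6 libraries Cdc40 did not (0.052).

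**Figure D3:**
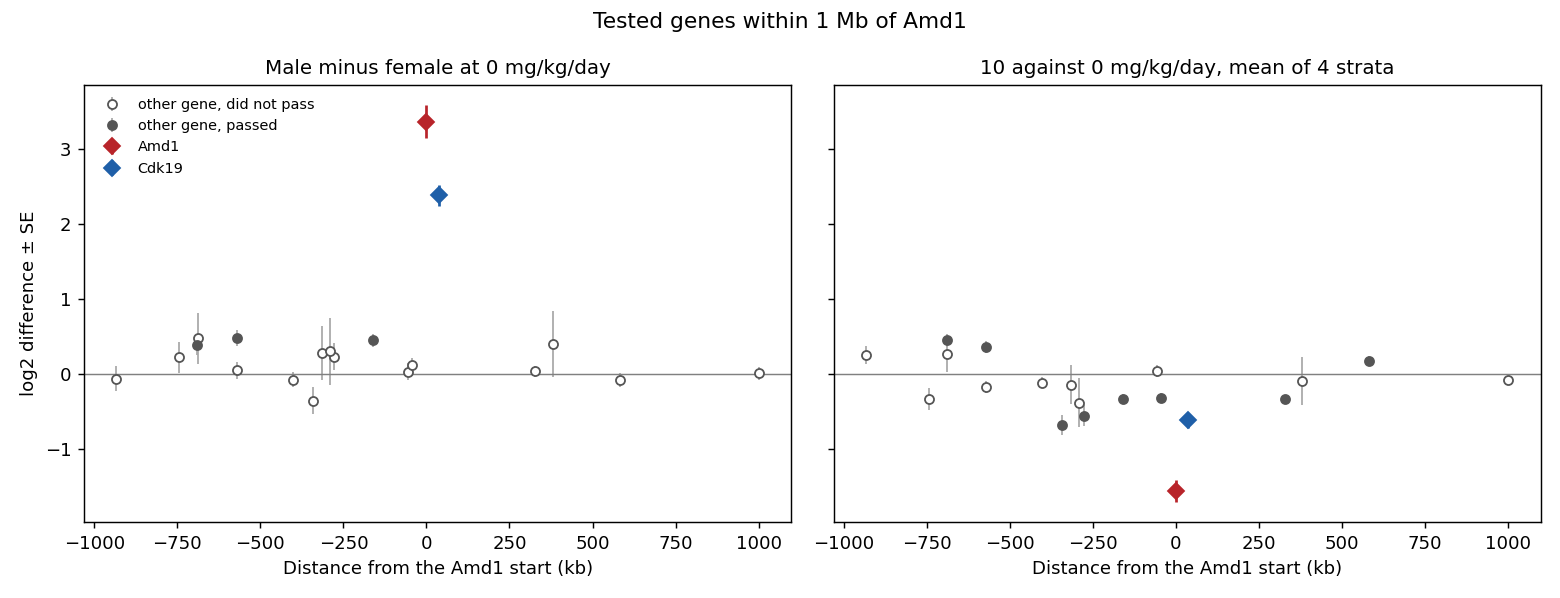
Log2 differences ± SE of the tested genes within 1 Mb of Amd1, by distance of the gene's start from that of Amd1 in kb, between the sexes at dose 0 (left) and between doses 10 and 0 (right). Amd1 and Cdk19 lie far above the other 18 genes between the sexes, of which 3 passed, and 8 of the 18 passed between doses.

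Males and females differed in 5 of the 10 genes without overlap at dose 0. Amd1 (3.36 ± 0.22), Amd2 (2.61 ± 0.30), Cdk19 (2.38 ± 0.14), Smox (1.93 ± 0.27) and Odc1 (1.69 ± 0.24) were higher in males on the log2 scale, with every male above every female, as were 0.982% of all tested genes. Sat1 was lower in males (-0.36 ± 0.10). These 6 passed, beside 7.59% of all tested genes. Sms, Azin1, Paox and Srm did not pass, at 0.26 ± 0.11, 0.20 ± 0.13, 0.00 ± 0.21 and -0.25 ± 0.15. Within each genotype alone 5 passed at dose 0, where 1.51% of all genes passed in hCYP2B6-Tg and 1.69% in Cyp2b-null mice. As the genes were chosen with the values by sex known, these are descriptions without a test.

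The differences between the sexes at the other doses are given side by side. At dose 1 the difference was 3.26 ± 0.22 for Amd1, 2.25 ± 0.14 for Cdk19 and 1.75 ± 0.27 for Smox, and Azin1 was also higher in males (0.64 ± 0.13). At that dose 7 of the 10 genes passed, beside 5.4% of all genes. At dose 10 it was 1.86 ± 0.22 for Amd1, 0.98 ± 0.14 for Cdk19, 0.96 ± 0.27 for Smox, 2.09 ± 0.33 for Amd2 and 1.59 ± 0.25 for Odc1. These 5 passed, beside 3.54% of all genes, and every male lay above every female for Amd1, Amd2 and Cdk19, as for 0.417% of all genes.

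The effect of dose 10 differed between the sexes for Amd1 by -1.50 ± 0.30 and for Cdk19 by -1.40 ± 0.19 (male minus female, log2). Of all genes 20, or 0.128%, passed in that comparison, 9 with a higher value in males and 11 with a lower one. As the 10 genes were chosen with values by sex and dose known, their values here are descriptions without a test. Smox had -0.97 ± 0.37 and did not pass, and the other 7 lay between -0.52 for Amd2 and 0.24 for Sat1. The call of Amd1 rests on single mice: its value was -1.40 ± 0.30 without Cyp2b-null male replicate 2 at dose 0 and -1.45 ± 0.31 without Cyp2b-null male replicate 2 at 10, and neither passed. Without the 6 libraries that stand apart Amd1 had -1.32 ± 0.31 and did not pass, while Cdk19 had -1.37 ± 0.23 and did. With adipocyte markers as a covariate the values were -1.54 ± 0.28 for Amd1 and -1.41 ± 0.20 for Cdk19.

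**Figure D4:**
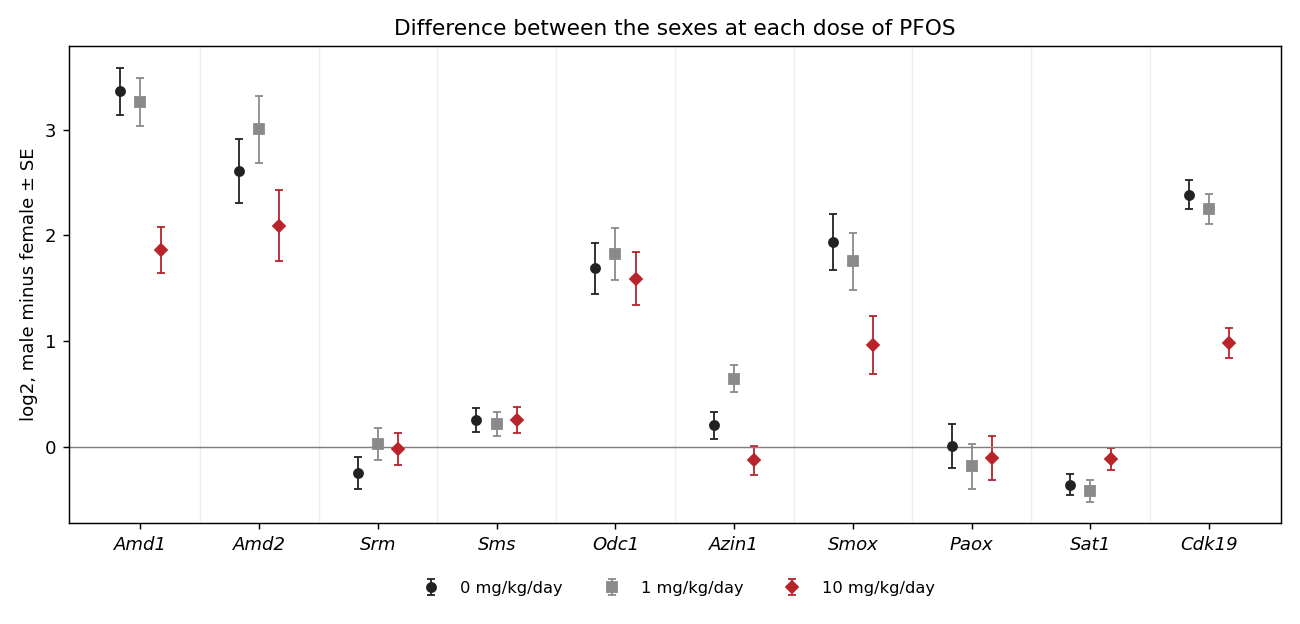
Log2 difference ± SE between males and females at doses 0, 1 and 10 of PFOS for each gene, over both genotypes. The difference at dose 10 lies below that at 0 for Amd1 (1.86 against 3.36) and Cdk19 (0.98 against 2.38), while that of Odc1 was 1.59 against 1.69.

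The lower dose and the genotypes are described in the same way, without a test, since the genes were chosen with those values known too. From dose 0 to dose 1, 0 of the 10 genes passed in edgeR's quasi-likelihood test, and 0 of all tested genes (0% called). At an unadjusted p under 0.05 there were 1 of the 10 and 578 of all. That gene was Smox, at 0.39 ± 0.18 (SE), with medians of 603 and 722 CPM in males and 146 and 227 in females at doses 0 and 1. Amd1 had 0.17 ± 0.14 (95% interval -0.12 to 0.46) and Cdk19 had 0.09 ± 0.09 (-0.10 to 0.28). DESeq2 and limma voom called 0 of the 10, and 1 and 0 of all genes.

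At dose 0 hCYP2B6-Tg and Cyp2b-null mice differed in 0 of the 10 and in 0 of all genes by edgeR, with 1 and 535 at an unadjusted p under 0.05. DESeq2 and limma voom called 0 of the 10, with 2 and 2 of all genes higher and 7 and 3 lower in hCYP2B6-Tg mice. The 1 was Amd2 (0.72 ± 0.29). Of the 7 mice with a high share of Amd2 reads, 4 were hCYP2B6-Tg and 1 was Cyp2b-null at this dose. Amd1 had 0.02 ± 0.20 and Cdk19 0.01 ± 0.13. The effect of dose 10 differed between genotypes for 0 of the 10 and 0 of all genes, with 1 and 1378 at an unadjusted p under 0.05. DESeq2 and limma voom called 0 of the 10, and 3 and 0 of all genes. The 1 was Azin1 (-0.50 ± 0.19). Amd1 had -0.18 ± 0.29 there.

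Mice of one group also differed among themselves, and those high in Amd1 were high in 4 other genes. After removal of the 12 group means the deviation of Amd1 correlated over 48 mice with that of Smox (r = 0.80), Sms (0.78), Cdk19 (0.72) and Amd2 (0.58), and inversely with that of Paox (-0.50). These passed a permutation test within groups with adjustment over the other 15582 tested genes. The permutation p was 1e-05 for Smox and Sms, the smallest that the 100000 permutations can give (adjusted p = 0.00113). For Cdk19 the adjusted permutation p was 0.00149, for Amd2 0.0217 and for Paox 0.0163. As 72.88% of the 100-base windows of the Amd2 transcript also occur in that of Amd1, counts of Amd2 may hold reads of Amd1. The part of such reads in the correlation of Amd1 and Amd2 was not tested. Of all genes 6.94% passed with a positive and 3.13% with a negative correlation, and Smox ranked 2, Sms 6 and Cdk19 43 among them.

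Spearman's rho was 0.78 for Smox, 0.75 for Sms, 0.69 for Cdk19, 0.47 for Amd2 and -0.57 for Paox. Its permutation p was 1e-05, 2e-05, 7e-05, 0.00347 and 0.00043 in that order, unadjusted. Srm (r = -0.33, adjusted permutation p = 0.163), Sat1 (-0.25, 0.433), Odc1 (0.20, 0.58) and Azin1 (0.14, 0.567) did not pass. Without the 2 mice farthest from the median of Amd1 the values were 0.75 for Smox, 0.73 for Sms, 0.70 for Cdk19 and -0.52 for Paox, which still passed. Amd2 fell to 0.36 (adjusted permutation p = 0.0824), while the other fits in which it did not pass left r less changed. It was 0.54 without the 6 libraries (adjusted permutation p = 0.0994), 0.54 with adipocyte markers removed (0.0764) and 0.52 with unscaled totals (0.0766). The 2 mice left out as farthest were hCYP2B6-Tg males at dose 10, replicates 3 and 4. By dose, r of Amd1 and Amd2 was 0.25, 0.86 and 0.70 at doses 0, 1 and 10.

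Taken by sex, r of Amd1 and Smox was 0.79 in males and 0.91 in females (24 mice each), and that of Amd1 and Sms was 0.82 and 0.78. For Cdk19 it was 0.84 in males and 0.24 in females, and for Odc1 0.71 and -0.51. Whether these differ between the sexes was not tested. By dose Smox had 0.83, 0.28 and 0.95 at doses 0, 1 and 10, and Cdk19 had 0.79, 0.89 and 0.75. Genes of one library share its total and its scaling factor.

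**Figure D5:**
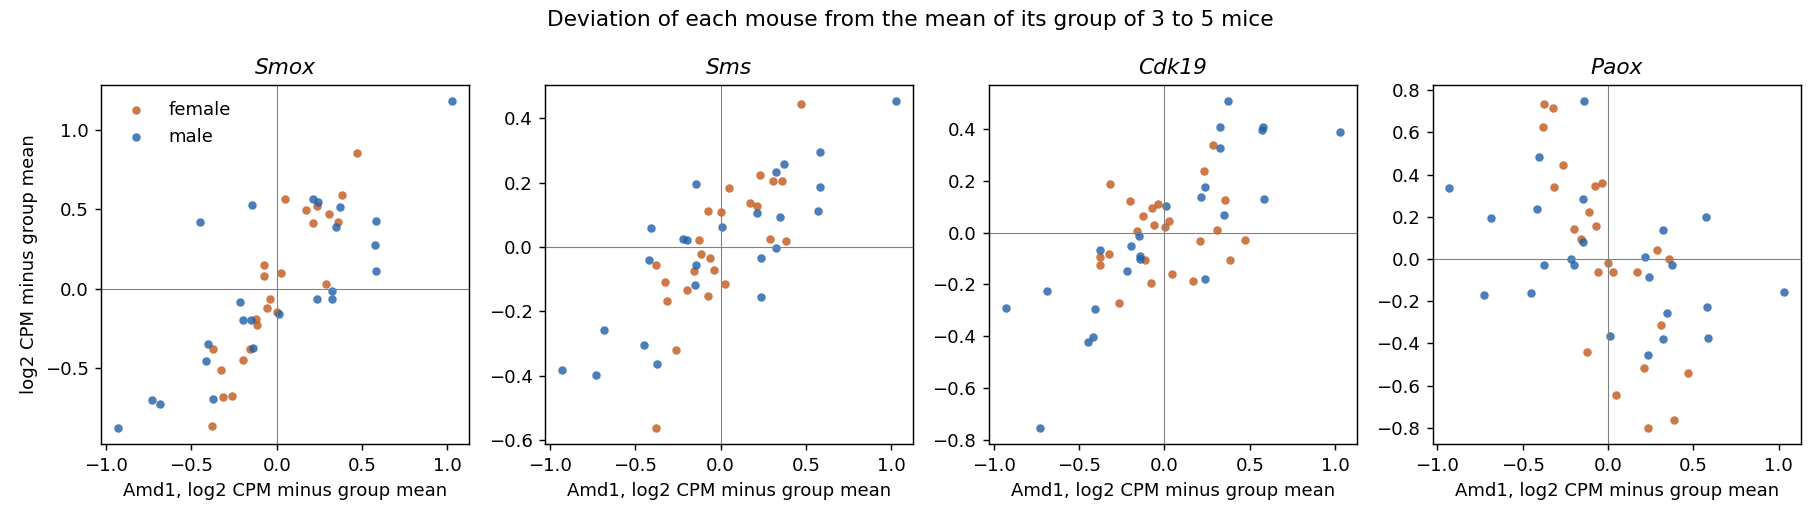
Deviation of each of 48 mice from its group mean in log2 CPM, for Amd1 (horizontal) and Smox, Sms, Cdk19 and Paox (vertical), with males and females in different colours. Over all 48 mice those high in Amd1 were high in Smox (r = 0.80), Sms (0.78) and Cdk19 (0.72) and low in Paox (-0.50). For Cdk19 r was 0.84 in males and 0.24 in females, and for Smox it was 0.83, 0.28 and 0.95 at doses 0, 1 and 10.

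Over the 12 group means, and among 10767 genes with an average log2 CPM of at least 1, the genes most like Amd1 were its pseudogenes Amd-ps3 (r = 0.997) and Amd-ps4 (0.996), then Cacna2d4, a calcium channel subunit (0.983), and Neto2, a receptor auxiliary subunit (0.982). The transcripts of these pseudogenes are 99.9% and 99.5% identical to that of Amd1 over their length, and 88.96% and 59.73% of their 100-base windows also occur in it, so their counts may hold reads of Amd1. Those most like Cdk19 were Slc30a2, a zinc transporter (0.993), Amd-ps3 (0.968), Itpr1, a calcium release channel (0.967), and Pcnx (0.961). Between Amd1 and Smox r was 0.967. Smox was followed by Cbr2 (0.988), Mir6338 (0.984), Gadl1 (0.982) and Zbtb18 (0.98). Odc1 was followed by Cdc42se2 (0.981), Dtnb (0.976), and the Y-linked Kdm5d (0.975) and Ddx3y (0.974), which are present in males alone. These likenesses describe 12 group means that share the contrasts of sex and dose, and carry no test.

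Genes that feed or drain the pathway were read from 6 lists of 64 genes that hold none of the 10, and 50 of them were tested. The lists were chosen with earlier results of these data known, and most genes are named for their small p. Adjusted p-values of list genes are therefore descriptions. From dose 0 to dose 10, 17 of the 50 rose and 11 fell, beside 25% and 22.5% of all genes, with a median log2 fold change of 0.05 against 0.04. In the list of regulators and transporters 4 of 11 tested genes rose and 2 fell. Oaz2, an antizyme that inhibits ornithine decarboxylase, fell (-0.48 ± 0.08, adjusted p = 2.09e-06). The transporter genes Slc7a2 (1.00 ± 0.20, adjusted p = 5.3e-05), Slc3a2 (0.32 ± 0.07, adjusted p = 9.83e-05) and Slc7a1 (0.57 ± 0.14, adjusted p = 0.00086) rose, of which Slc7a1 and Slc7a2 carry arginine and ornithine into cells. With adipocyte markers as a covariate Slc7a1 did not pass (adjusted p = 0.0798).

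In arginine and ornithine supply 2 of 6 tested genes rose and 1 fell. Slc25a15, the mitochondrial ornithine carrier, fell (-0.83 ± 0.10, adjusted p = 4.01e-09), and Oat, ornithine aminotransferase, rose (0.41 ± 0.06, adjusted p = 8.83e-08). Ass1, which makes argininosuccinate, rose (1.12 ± 0.46, adjusted p = 0.0415) but did not pass with adipocyte markers as a covariate (adjusted p = 0.348). Its level was low as well, with a mean of 0.68 CPM at dose 0 (1 to 27 counts) and 1.42 CPM at dose 10 (9 to 42 counts). In the methionine cycle and salvage, which supplies the substrate of Amd1 and recycles its by-product, 3 of 15 rose and 6 fell. Mat2a, which makes S-adenosylmethionine in muscle, fell (-0.67 ± 0.06, adjusted p = 2.75e-11), as did the salvage enzyme Apip (-0.49 ± 0.07, adjusted p = 6.18e-08) and the aminotransferase Got2 (-0.42 ± 0.07, adjusted p = 3.46e-06). Gnmt, a methyltransferase that consumes S-adenosylmethionine, rose (2.30 ± 0.43, adjusted p = 2.76e-05). Its level was low, with a mean of 1.07 CPM at dose 0 (2 to 33 counts) and 5.01 CPM at dose 10 (22 to 208 counts).

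In amine oxidation and disposal 3 of 8 rose and 2 fell. The other that rose was Aoc3, an amine oxidase of fat and vessels named after its values were seen, at 0.95 ± 0.34, adjusted p = 0.0185. With adipocyte markers as a covariate it turned to -0.61 (adjusted p = 0.00624). The aldehyde dehydrogenases Aldh2 (0.58 ± 0.12, adjusted p = 9.1e-05) and Aldh1a1 (0.56 ± 0.16, adjusted p = 0.00395) rose, and the monoamine oxidases Maoa (-0.44 ± 0.10, adjusted p = 0.000188) and Maob (-0.37 ± 0.12, adjusted p = 0.0118) fell. Of these 4 only Maoa passed with adipocyte markers as a covariate (adjusted p = 0.00822, against 0.0588, 0.137 and 0.131 for Aldh2, Aldh1a1 and Maob). Without the 6 libraries Maob and Aoc3 did not pass (adjusted p = 0.0935 for both), and with library totals left unscaled Maob did not (0.229). In the hypusination of eIF5A, which takes its group from spermidine, 2 of 4 rose, Dhps, deoxyhypusine synthase (0.31 ± 0.06, adjusted p = 1.77e-05), and Eif5a2 (0.60 ± 0.16, adjusted p = 0.00172), and 0 fell. Eif5a2 did not pass with the covariate (adjusted p = 0.055). In the Mediator kinase module, the partners of Cdk19, 3 of 6 rose and 0 fell, namely Med12 (0.41 ± 0.05, adjusted p = 6.34e-09), Med13l (0.33 ± 0.08, adjusted p = 0.000558) and Cdk8 (0.19 ± 0.06, adjusted p = 0.00603), the paralogue of Cdk19.

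Between the sexes at dose 0, 5 of these 50 genes were higher in males and 4 lower, beside 4.73% and 2.86% of all genes. The higher ones were Mtr (0.47, log2), Atp13a3 (0.43), Adi1 (0.38), Med13 (0.37) and Mat2a (0.30). The lower ones were Gatm (-1.01), Asl (-0.71), Aldh2 (-0.56) and Slc3a2 (-0.45). The effect of dose 10 differed between the sexes for 0 of the 50 in edgeR's test, with 5 at an unadjusted p under 0.05, 0 by DESeq2 and 1 by limma voom. From dose 0 to dose 1, 0 of the 50 passed, with 2 at an unadjusted p under 0.05 and 0 by DESeq2 or limma voom.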

How the data were processed

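Raw read counts per gene were deposited by the authors in 1 table for 48 gastrocnemius libraries, with symbols and coordinates. The submitters' processing notes name HISAT2 and GRCm39, but the table's coordinates are those of GRCm38, in which positions are given. For the 10 genes start and end equal those of the GENCODE vM21 annotation. The counting program, its use of strand and its treatment of reads that fit several genes were not given in the sources used here. Per the labels, the extraction text names liver, while the tissue field names gastrocnemius muscle.

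Counts were filtered with filterByExpr and scaled with TMM in edgeR 4.0.16 (R 4.3.3). A quasi-likelihood model with 1 coefficient per group was fitted to all 48 libraries (with 36 residual degrees of freedom and a biological coefficient of variation of 23.5%). Contrasts were tested two-sided, adjusted by Benjamini-Hochberg over 15583 genes at 0.05, and a gene that passed is one below that. Averages over strata weight the 4 strata equally. Levels are CPM on scaled library totals as mean ± SD, and log2 fold changes are ± SE. P-values of contrasts set a difference against the spread between mice of the same group. Alternatives were DESeq2 1.42.0, limma 3.58.1 voom, other scalings, filters and covariates, a replicate block, other windows and left-out libraries. The comparisons of sexes at doses 1 and 10, within genotypes and of doses within sexes, the fits without 6 libraries and the sum with pseudogenes were added after seeing the data.

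The 10 genes and all lists were chosen with earlier results of these data known. No p is therefore printed for the 10 genes in any contrast of dose, sex or genotype, although tests were planned. For the same reason the adjusted p-values of list genes are given as descriptions. Correlations used log2 CPM (prior count 2) and 100000 permutations within groups, adjusted over 15582 genes in place of the 9 pairs first planned. Named were the 10 genes, up to 4 passing genes of each list with the smallest p, all tested neighbours with a proper symbol, and the 4 genes most like Amd1, Odc1, Smox and Cdk19. List genes that passed between the sexes were named after their values were seen. Of 73 pairs of mice within groups, the most alike differed by a chi-square per degree of freedom of 7.24, so no library was taken for a copy. The fit was also run on simulated counts. These had the same spread for every gene and no differences of sex or genotype, so nothing is read from them here.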

Additional observations from a re-analysis of the deposited data

Results flagged for a closer look

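Within a group of 4 or 5 mice a gene was listed when its highest or lowest mouse lay apart from the rest by most of the group's range. Of 110 groups and genes examined 7 were listed, and chance alone lists about 1 in 20. The mouse with the highest Odc1 among females, hCYP2B6-Tg replicate 2 at dose 10, had 248 CPM, with the nearest of its group at 67.2. Amd1 stood at 284 CPM in Cyp2b-null female replicate 3 at dose 1 (nearest 210.1), and Amd2 at 2.45 in hCYP2B6-Tg female replicate 1 at 10 (nearest 2.88), from 37 counts. Srm stood at 8.23 CPM in hCYP2B6-Tg female replicate 4 at dose 1 (nearest 6.66). Paox stood at 9.10 CPM in Cyp2b-null male replicate 2 at dose 1 (nearest 4.79), which is the library with 27859 Alb counts. Azin1 stood at 32.2 CPM in Cyp2b-null female replicate 2 at dose 0 (nearest 41.3) and at 70.3 in Cyp2b-null male replicate 3 at 1 (nearest 49.3).

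The effect of dose 10 was listed as different between males and females for Amd1 (-1.50, male minus female, log2) and Cdk19 (-1.40). This is a description, as the genes were chosen with values by sex and dose known. Amd1 did not pass without Cyp2b-null male replicate 2 at dose 0, nor without Cyp2b-null male replicate 2 at dose 10.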

How the results depend on the processing

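Of 1074 alternative counts of genes, 1061 stayed within 1.5 times of the reported count and 13 did not. Many of these counts were 0 in every fit and most fits left out only 1 mouse, so that share says little by itself. Of the 10 genes 0 reversed a passing direction. Among list genes Aoc3 did so with adipocyte markers as a covariate, from 0.95 to -0.61. With library totals left unscaled, which moves the median of all genes from 0.04 to 0.26 (log2) and the share of higher calls at dose 10 from 52.6% to 82.1%, 27 list genes rose and 6 fell, and 5 neighbours of Amd1 rose and 2 fell. With adipocyte markers as a covariate 10 list genes rose. Without the 6 libraries that stand apart, an alternative chosen after seeing the data, 7 list genes fell and 1 of the 10 genes, Cdk19, differed between the sexes in its effect, with Amd1 at -1.32 ± 0.31. Within 0.25 Mb of Amd1 0 genes rose and 2 fell, and within 2 Mb 8 rose. Causes were not tested.

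Leaving out 1 mouse at a time gave 3 to 4 of the 10 genes higher at dose 10, 0 to 1 lower in males at dose 0 and 1 to 2 with a different effect by sex. The 0 came without Cyp2b-null male replicate 2 at dose 0 (Sat1 -0.31). The 1 came without that mouse and without Cyp2b-null male replicate 2 at dose 10, where Amd1 did not pass. Lists gave 15 to 18 genes that rose and 10 to 13 that fell, and neighbours 2 to 4 and 5 to 7. Over all genes the difference between the sexes in the effect of dose 10 was called for 20 by edgeR, 13 with a replicate block, 5 without the 6 libraries, 92 by DESeq2 and 187 by limma voom. The sex difference at dose 0 was called for 1182 and by limma voom for 2797.

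Replicate numbers did not pair mice: 253 pairs with one number had a mean correlation of -0.00926 against 0.00319 for others, and 1 of 48 mice was closest to its own number. With a replicate block 3 of the 10 genes were higher and 6 lower at dose 10, with Odc1 at 0.38 ± 0.18, which did not pass, nor did it by limma voom (0.22 ± 0.13). A median total count of 14420691 leaves Paox and Srm with the fewest reads, and Amd2 had 37 to 64 counts in females at dose 10.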
